A study of Mus musculus with 6 samples.

Results

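The ribosomal protein genes of the cytosolic ribosome were examined in embryonic mouse cortex (E12.5). Members were the genes whose symbol is Rpl or Rps followed by a number and at most 1 of the letters a, x or l, together with Rplp0, Rplp1, Rplp2 and Rpsa. The array had rows with exactly 1 gene symbol for 64 such symbols, and Rpl6l and Rps4l, which RefSeq lists as pseudogenes, were left out. This gave 62 ribosomal protein genes of 22180 genes in all: 32 of the large subunit, 22 of the small subunit, the 3 stalk proteins and 5 paralogs whose symbol ends in l. RefSeq holds 19 further protein-coding genes under the same naming rule, of which 12, such as Rpl10, Rpl24 and Rps2, were represented only by rows that carry several symbols, and the other 7 were not analysed here.

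The cortices came from 3 control embryos and 3 embryos with loxP-flanked alleles of Lats1 and Lats2 (Lats1F/F;Lats2F/F) and a Nestin-Cre transgene, called DKO for double knock-out. Every embryo gave 1 array, and all samples were untreated. The alleles of the controls are not given in the sources used here. Cre under the control of Nestin sequences acts in neural progenitors and the cells they produce, so vessels, blood and meninges in the dissected cortex would keep both genes. Array DKO 2 was the lowest of the 6 arrays for 6 of 6 endothelial, 3 of 3 measured erythroid and 7 of 7 meningeal markers. Its summed linear signals for these were 875, 4416 and 873. Control 1 was the highest array for 6 of 6 endothelial markers and DKO 1 for 5 of 7 meningeal markers. DKO 2 also held the highest hem and choroid plexus sum, 1576, with Ttr at 10.25 against 8.84 in DKO 1 and 8.33 in DKO 3. Of the 6 hem and choroid plexus markers measured, DKO 1 and DKO 2 each held the highest value for 3. The comparison asked whether transcript levels differed between DKO and control cortex when the Hippo kinases Lats1 and Lats2, which restrain the coactivators YAP and TAZ, were targeted.

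Each ribosome carries a large subunit, which joins amino acids, and a small subunit, which reads the mRNA, and cells make the proteins of both in matched amounts. Their mRNAs are among the most abundant in growing cells, and many begin with a C followed by a run of pyrimidines, the terminal oligopyrimidine or TOP sequence. Through this sequence mTORC1 and the RNA-binding protein Larp1 set how actively these mRNAs are translated, so that protein output can change with no change in mRNA level. Neural progenitors of the early cortex divide rapidly and are known for high ribosome content.

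The RefSeq promoter table (GRCm38.p6) held a start site for 49 of the 62 genes. In 21 of these (42.9%) a C followed by at least 4 bases that are C or T began within 5 bases of an annotated start, on the transcript's strand, against 5718 of 27025 genes (21.2%) in the whole table. The letters CCGGAAG or their reverse complement CTTCCGG, with any overlap allowed, lay in the 250 bases before to 50 bases after the start in 22 of the 49 genes (44.9%) and in 9.93% of all genes in the table. The starts of 10 genes described in the results, 6 with a tract and 4 without, are shown so that the run of pyrimidines can be seen beside starts that lack it. Each line gives 15 bases on either side of the start, 5′ to 3′, with the tract in capitals.
Rps6, chr4:86857353-86857382, minus strand: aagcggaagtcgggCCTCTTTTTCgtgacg
Rps18, chr17:33955651-33955680, minus strand: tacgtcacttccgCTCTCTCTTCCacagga
Rps10, chr17:27635230-27635259, minus strand: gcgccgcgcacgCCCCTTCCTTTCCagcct
Rpl28, chr7:4792950-4792979, plus strand: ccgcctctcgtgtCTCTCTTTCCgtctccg
Rpl35, chr2:39005117-39005146, minus strand: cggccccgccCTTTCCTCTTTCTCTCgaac
Rpl38, chr11:114668565-114668594, plus strand: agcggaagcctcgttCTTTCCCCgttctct
Rpl11, chr4:136053379-136053408, minus strand: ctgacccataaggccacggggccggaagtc
Rps15, chr10:80292416-80292445, plus strand: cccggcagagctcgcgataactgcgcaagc
Rpl27, chr11:101442230-101442259, plus strand: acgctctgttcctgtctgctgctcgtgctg
Rplp0, chr5:115559452-115559481, plus strand: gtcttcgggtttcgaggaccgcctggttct

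The Rps6 tract spans 10 bases. In Rpl35 the capitals begin at the limit of 5 bases before the start, and the pyrimidine run itself reaches further upstream. The windows of Rpl11, Rps15, Rpl27 and Rplp0 hold no tract by this definition, which depends on the annotated start. Of the genes with a start in the table, 20 tested members with a tract had a median difference of 0.023 on the log2 scale between DKO and control, and 25 tested members without one had a median of 0.023.

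No ribosomal protein gene passed the test in either direction. Of the 62 genes, 58 had a mean log2 signal above the limit for dim genes (5.02, set at the 25th percentile) and were tested with limma among 16724 genes, called at a Benjamini-Hochberg adjusted p under 0.05. The number that rose was 0 and the number that fell was 0, where 1.72% of all genes tested were called, 1.36% higher and 0.359% lower in DKO. At an unadjusted limma p under 0.05, 4 of the 58 (6.90%) were higher and 0 lower in DKO, against a background of 6.39% higher and 9.18% lower, or 15.6% in both directions. The smallest adjusted p was 0.259, for Rpl17.

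The signals of the 58 genes were close to equal in the 2 genotypes. Their median difference, DKO minus control, was 0.023 on the log2 scale, and the differences ran from -0.13 for Rpl26 to 0.31 for Rps15. Over all 62 genes, the 4 dim ones included, the median was 0.023 as well. The median of all genes tested was -0.028, so the ribosomal protein genes lay slightly above the average gene of the array. A mean higher in DKO was found for 43 of the 58 (74.1%), against 39.8% of all genes tested, and the median stayed above 0 in each of the 17 alternative fits. The difference was under 0.1 in size for 46 of the 58 genes (79.3%), against 59.4% of all genes tested. The 58 genes were brighter, however, with a median signal of 10.2 against 7.11 for all genes tested. Among genes with a mean signal of 9 or more, the share under 0.1 was 85.3% of 34 members and 67.1% of all genes tested. Means there were higher in DKO for 73.5% and 44.2%, with medians of 0.022 and -0.012.

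**Figure D1:**
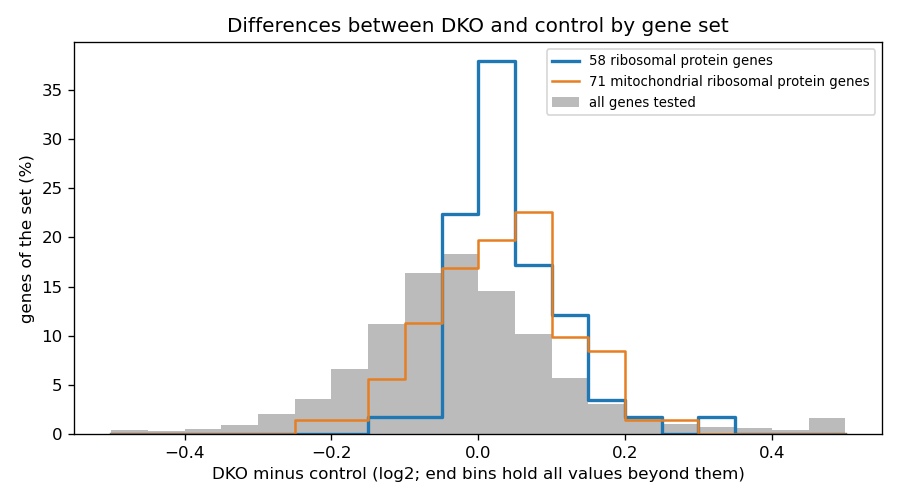
Share of genes (y axis, percent of each set) by DKO minus control difference (x axis, log2, bins of 0.05) for all 16724 genes tested (grey bars), the 58 tested ribosomal protein genes (blue line) and 71 mitochondrial ribosomal protein genes (orange line). The blue line is narrow and centred just above 0, between -0.13 and 0.31.

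The 95% confidence intervals show how precisely the differences in signal were measured, given the scatter between arrays. Whether very bright rows respond less to a change in mRNA level was not tested. The highest value among all rows was 13.70, and the mean signal of Rps6 was 13.11. For 37 of the 58 genes (63.8%) the 95% confidence interval of the limma fit lay wholly within 0.25 of 0 on the log2 scale, a 1.19-fold change, and this was so for 42.9% of all genes tested. For 57 of the 58 it lay within 0.5, a 1.41-fold change, the exception being Rps15, whose upper bound was 0.61. RMA, the method behind the deposited values, brings all arrays to a common distribution, so a change in total RNA per cell cannot be seen in them. In a dissected tissue, fewer cells of a type and less RNA per cell cannot be told apart either.

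Genes of the large subunit showed differences between -0.13 and 0.22, with a median of 0.013. Means were higher in DKO for 23 of the 32 and lower for 9, and 2 of the 32 were higher at an unadjusted p under 0.05 (6.39% of all genes tested). The DKO arrays lay wholly above the controls for 7 genes (8.22% of all genes) and wholly below for 2 (13.4% of all genes). Rpl17, which lines the exit tunnel of the growing peptide, had 7.16, 7.03 and 7.12 in the control arrays and 7.36, 7.43 and 7.16 in DKO arrays 1 to 3. The lowest DKO value and the highest control value nearly touch, so the separation rests on a gap smaller than the spread in either group. Its log2 difference was 0.22 ± 0.08 (SE, n = 3 per group), limma adjusted p 0.259.

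Rpl11 and Rpl5 together bind Mdm2, the ubiquitin ligase of p53, when ribosome assembly fails. Rpl11 stood at 5.98, 5.91 and 5.88 in controls and at 6.15, 6.03 and 6.04 in DKO. All DKO values exceeded all control values, with a difference of 0.15 ± 0.07 (SE) and an adjusted limma p of 0.305. Rpl5 stood at 6.69, 6.67 and 6.98 in controls and at 6.67, 6.76 and 6.87 in DKO, and the groups overlapped throughout. Its difference was -0.017 ± 0.097 (SE), and its sign changed with the scaling of the arrays.

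Rpl32 and Rpl27, structural proteins of the large subunit, had the smallest p among genes with a signal above 9. Rpl32 was at 11.53, 11.61 and 11.62 in controls and 11.69, 11.69 and 11.78 in DKO, a difference of 0.13 ± 0.06 (SE, adjusted limma p 0.365). Rpl27 was at 11.15, 11.20 and 11.11 in controls and 11.25, 11.25 and 11.33 in DKO, a difference of 0.12 ± 0.06 (SE, adjusted limma p 0.389). In both genes the groups did not overlap, the highest value was that of DKO 3, and the changes were 1.095-fold and 1.089-fold.

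The bright rows of the large subunit varied least. Rpl38, needed in the embryo for translation of a subset of Hox mRNAs, had 12.34, 12.35 and 12.34 in controls and 12.35, 12.30 and 12.45 in DKO. Its control values agree to within 0.003 (SD), while DKO 2 is the lowest and DKO 3 the highest of the 6. Rpl28 and Rpl21 were the genes whose DKO arrays lay below all controls, with differences of -0.027 ± 0.056 and -0.038 ± 0.057 (SE). Rpl3, which reaches towards the catalytic centre, had a difference of 0.10 ± 0.07 (SE), and Rpl22, an RNA-binding protein that lymphoid development requires, 0.08 ± 0.08 (SE). At the lower end, Rpl26 had -0.13 ± 0.12 (SE), Rpl39, a small protein of the exit tunnel, -0.08 ± 0.06 and Rpl9 -0.04 ± 0.08, and their groups overlapped.

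**Figure D2:**
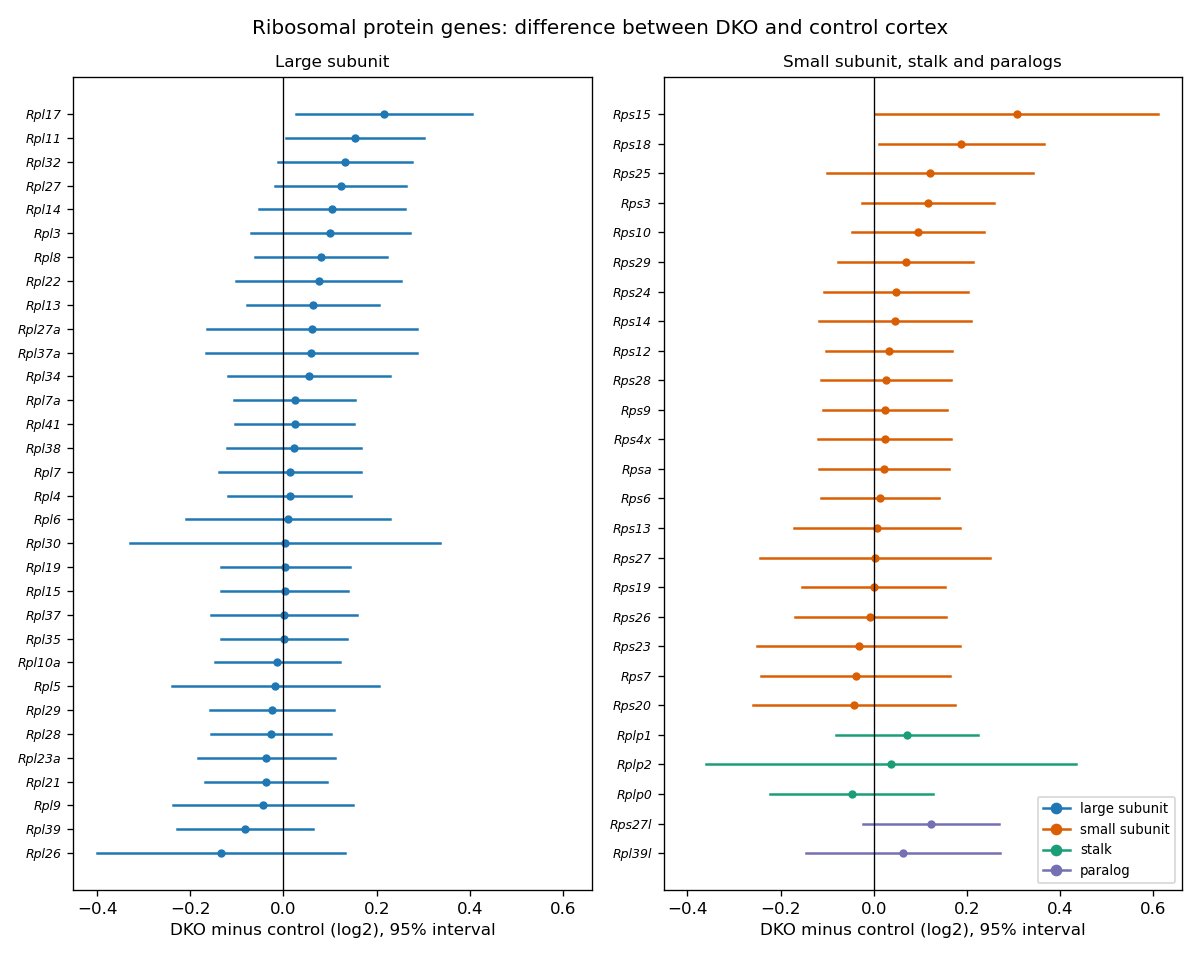
Difference between DKO and control (x axis, DKO minus control, log2) for each of the 58 tested genes (y axis), with the 95% confidence interval of the limma fit; large subunit left, small subunit, stalk and paralogs right. The points lie between -0.13 and 0.31, and the intervals of 4 genes, Rpl17, Rpl11, Rps15 and Rps18, do not include 0 before adjustment for the number of genes tested.

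Genes of the small subunit behaved alike, with a median of 0.024 over the 21 tested and a range from -0.04 to 0.31. Means were higher in DKO for 16 and lower for 5. Rps15, whose tail reaches into the decoding site, had the largest difference, 0.31 ± 0.13 (SE, adjusted limma p 0.319). Its control values were 5.94, 5.61 and 5.47 and its DKO values 5.88, 5.87 and 6.20, so control 1 lay above the lower 2 DKO arrays. Rps18, of the head of the small subunit, had 7.98, 8.07 and 7.96 in controls and 8.07, 8.31 and 8.18 in DKO. The DKO values lay above the controls by a narrow margin, with a difference of 0.19 ± 0.08 (SE, adjusted limma p 0.294).

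Rps3, which sits at the entry of the mRNA channel, was at 10.87, 10.87 and 10.95 in controls and 11.02, 10.95 and 11.06 in DKO. The groups did not overlap, and the difference was 0.12 ± 0.06 (SE, adjusted limma p 0.421). Rps10, also of the small subunit, was the third gene of the small subunit with groups apart, at 0.09 ± 0.06 (SE). Rps6, the phosphorylation target of S6 kinase downstream of mTORC1, was among the steadiest rows, at 13.10, 13.10 and 13.10 in controls and 13.12, 13.10 and 13.12 in DKO. Its difference was 0.013 ± 0.056 (SE), with an interval from -0.11 to 0.14. Rps19, the gene most often mutated in Diamond-Blackfan anaemia, had a difference of -0.0006 ± 0.0675 (SE), Rps14, lost in a related anaemia, 0.05 ± 0.07 and Rpsa, also known as the laminin receptor, 0.022 ± 0.061. Rps20 had the lowest mean difference of the subunit, -0.04 ± 0.09 (SE).

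Across both subunits, stalk and paralogs, the DKO arrays lay above all controls for 11 of the 58 genes (19%) and below for 2 (3.45%). Those above were Rpl8, Rpl11, Rpl14, Rpl17, Rpl27, Rpl32 and Rpl41 of the large subunit, Rps3, Rps10 and Rps18 of the small subunit and the paralog Rps27l, and those below were Rpl21 and Rpl28. The background was 8.22% above and 13.4% below among all genes tested. In both directions together the share was 22.4% of ribosomal protein genes and 21.6% of all genes, so the overall share was near the background while its split was towards higher values.

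The stalk, made of Rplp0, Rplp1 and Rplp2, recruits elongation factors to the large subunit. Rplp0, often used as a reference gene, was at 10.91, 10.85 and 11.00 in controls and 10.89, 10.76 and 10.98 in DKO, a difference of -0.05 ± 0.08 (SE). The groups overlapped and DKO 2 was the lowest of the 6 arrays. A second, dimmer Rplp0 row (mean signal 6.50) had -0.23 ± 0.10 (SE), with all DKO arrays below the controls. Its adjusted limma p in a fit of all rows was 0.377. Rplp1 had a difference of 0.07 ± 0.07 (SE). Rplp2 stood at 5.96, 6.12 and 5.94 in controls and at 5.85, 5.77 and 6.51 in DKO. DKO 3 alone lay above the controls there and the other DKO arrays lay below them, so the difference of 0.04 ± 0.17 (SE) became -0.20 without DKO 3.

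Of the 5 paralogs, 2 passed the limit for dim genes. Rps27l, a paralog of Rps27 and a known p53 target, was at 8.06, 8.02 and 8.02 in controls and 8.18, 8.07 and 8.22 in DKO. All DKO values lay above the controls, by 0.12 ± 0.06 (SE, adjusted limma p 0.412). Rpl39l, a testis-enriched paralog, had a difference of 0.06 ± 0.09 (SE). Rpl10l and Rpl3l, known from testis and from striated muscle, and Rpl32l had mean signals of 3.66, 4.86 and 3.46, under the limit of 5.02, and were not tested. Rps16 of the small subunit, at 4.96, was the fourth gene left out.

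The spread of the values depended on how bright a row was. Across the 58 genes the residual SD fell with the mean signal (Spearman rho -0.789), and the size of the difference fell less (rho -0.315). These points come from the same 6 arrays and the correlations are given as descriptions. Of the 34 genes with a mean signal of 9 or more, 0 had an unadjusted limma p under 0.05 and 29 (85.3%) had an interval within 0.25 of 0. Of the 24 genes under 9, 4 had an unadjusted p under 0.05 and 8 (33.3%) had an interval within 0.25. For all genes tested, the unadjusted shares were 7.12% higher and 9.23% lower at 9 or more and 6.27% and 9.17% under 9, and intervals within 0.25 made up 61.1% and 39.9%. The median residual SD was 0.0482 in the brighter and 0.132 in the dimmer set, against 0.0658 and 0.101 for all genes tested on the same sides of 9.

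**Figure D3:**
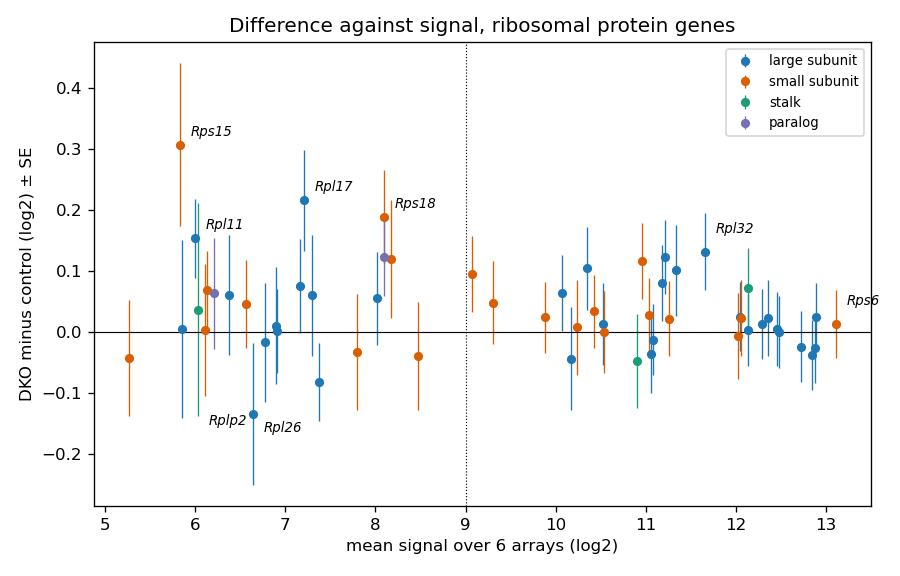
Difference between DKO and control (y axis, log2, bars ± SE) against the mean signal over 6 arrays (x axis, log2) for the 58 tested genes, coloured by role; the dotted line marks a signal of 9. Signals of different rows depend on their probes and are not levels to be compared between genes. The 4 genes with an unadjusted p under 0.05 lie left of the line, where the bars are wider.

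A gene's result depended in part on which row stood for it. The 62 genes had 102 rows, 95 of them with distinct values, and 23 genes had more than 1 distinct row. Rows of 1 gene differed in mean signal by up to 7.0 on the log2 scale, for Rps26, and in 12 of the 23 genes the differences between DKO and control had opposite signs. Those 12 were Rpl3, Rpl7a, Rpl9, Rpl19, Rpl21, Rpl29, Rpl35, Rpl41, Rplp1, Rps9, Rps20 and Rps24. Their row differences ran from -0.11 for a row of Rpl7a to 0.25 for a row of Rps20. None of the 95 distinct rows passed limma's test when all rows were fitted. At an unadjusted limma p under 0.05, 7 rows were higher and 1, a row of Rplp0, lower. In the fit with 1 row per gene the shares of all genes were 6.39% and 9.18%. Rows of equal sign also differed in size. Dimmer rows of Rpsa and Rpl4 had 0.19 ± 0.06 and 0.22 ± 0.08 (SE), where the kept rows had 0.022 and 0.013.

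For 11 members a brighter row existed that also carried the symbol of a pseudogene, a small RNA or another gene. Rps16 had a signal of 4.96 in its own row and 11.67 in the shared one, Rpl30 5.85 and 11.60, Rpl26 6.64 and 11.10, and Rplp2 6.03 and 11.09. In the shared rows the DKO minus control differences of these genes were 0.07, 0.03, 0.0002 and 0.07, which brings Rpl26, the lowest of the 58, close to 0. The exception was Rpl5, whose shared row was at 7.28, 6.85 and 7.14 in controls and 7.55, 7.44 and 7.64 in DKO. All DKO values were higher there, by 0.45 ± 0.11 (SE), with a limma adjusted p of 0.0963, against -0.017 in the row of Rpl5 alone. The signal of the Rpl5 row cannot be assigned to Rpl5 or its pseudogene Rpl5-ps2. Of all 57 rows that carry a symbol under the naming rule beside others, 54 were tested: 1, shared by Snord15b and Rps3, rose and 0 fell. At an unadjusted limma p under 0.05, 13 were higher and 0 lower (6.39% and 9.18% of all genes). The median was 0.062, with 41 means higher and 13 lower, where 39.8% of all genes tested had a higher mean. Several of these rows share 1 gene, and their signal may belong to any symbol named. With the brightest row of any kind for each gene, 71 genes were tested, 0 were called, 7 had an unadjusted limma p under 0.05 in the higher direction and 0 in the lower, and the median was 0.033. Of the 12 genes that only shared rows represent, 0 passed limma's test. Rps21 had 0.17 and Rpl36a 0.15, both with an unadjusted p under 0.05, while Rpl10, which joins the large subunit last, had -0.02, Rpl23 0.0014 and Rpl24, a bridge to the small subunit, -0.04.

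The small upward shift was uneven among the DKO embryos. Each value was set against that gene's mean over the 6 arrays, and the median of the 58 genes was -0.014, -0.014 and -0.010 in the controls and 0.006, -0.015 and 0.064 in DKO 1, DKO 2 and DKO 3. DKO 3 therefore lay above the other 5 arrays, and DKO 2 was as low as the controls. The medians of all genes tested were 0.020, -0.005 and 0.016 in the controls and -0.011, -0.031 and 0.004 in DKO. In DKO 3, 45 of the 58 genes (77.6%) were above their own mean, against 51.5% of all genes tested. These were 20 of the 21 small-subunit genes and 21 of the 32 large-subunit genes, the rest being stalk and paralog genes. DKO 3 held the highest of the 6 values for 28 of the 58 genes (48.3%), against 16.7% of all genes tested. Without DKO 3 the median difference was 0.012, with 33 genes higher and 25 lower, beside a median of -0.035 for all genes. Without DKO 2 it was 0.043, beside -0.018 for all genes, with 47 of the 58 genes higher and 11 lower. The shares of all genes with a higher mean were not counted in these fits. Without DKO 2, 0 of the 58 were called by limma. At an unadjusted limma p under 0.05, 3 were higher and 0 lower in that fit, where 7.33% of all genes were higher. The part of tissue composition in the differences between the DKO embryos was not tested.

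**Figure D4:**
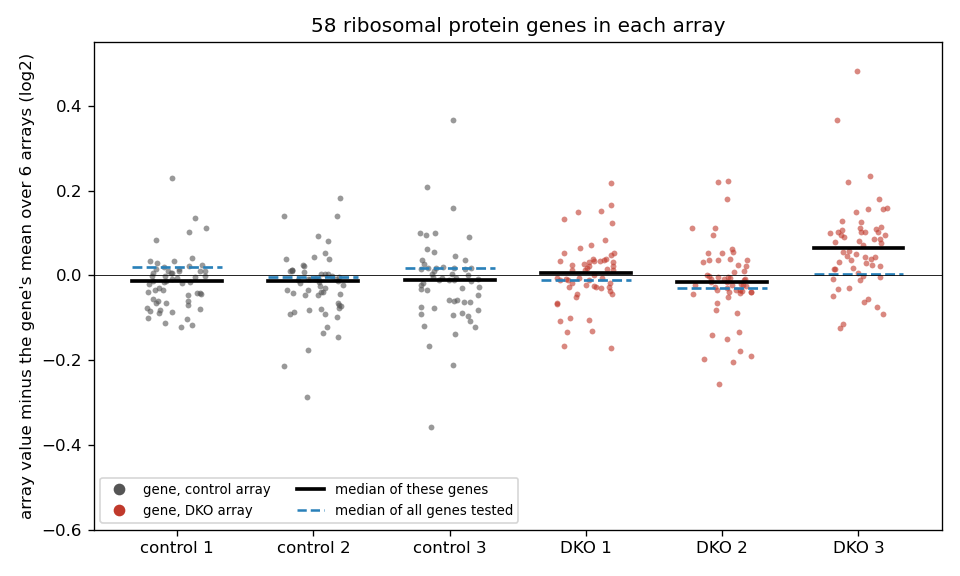
Value of each of the 58 genes in each array minus that gene's mean over 6 arrays (y axis, log2), by array (x axis); grey points are control, red points DKO, black bars the median of these genes and dashed blue bars the median of all genes tested. The black bar of DKO 3, at 0.064, is the highest; that of DKO 2, at -0.015, is level with the controls.

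Other genes of translation were counted in the same fit. Among all genes tested, 6.39% were higher and 9.18% lower at an unadjusted limma p under 0.05. Of 71 mitochondrial ribosomal protein genes, 0 rose and 0 fell, with a median of 0.026 and a range from -0.22 to 0.28, and 4 were higher and 0 lower at an unadjusted limma p under 0.05. Mrps18b came closest to a call, at 0.28 ± 0.06 (SE, adjusted limma p 0.0549), followed by Mrpl12 at 0.16 ± 0.07. The group of 17 elongation factors and other TOP mRNAs held 0 calls and a median of 0.023, with 0 higher and 1 lower at an unadjusted limma p under 0.05. Eif3f, a subunit of the initiation factor that recruits the small subunit, had -0.14 ± 0.06 (SE), and Eef1d, of the elongation factor that reloads eEF1A, 0.18 ± 0.10. The 23 initiation factors held 0 calls by limma, 0 unadjusted, and a median of 0.065; Eif2s2, which brings the initiator tRNA, had 0.19 ± 0.09 (SE) and Eif3c 0.12 ± 0.06. Of 7 ribosomal proteins and paralogs with other names, 4 had a row and 0 were called, with 1 lower at an unadjusted limma p: Rpl7l1 at -0.16 ± 0.07 (SE), and Rpl22l1 had 0.07 ± 0.07.

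A call was made in each of 2 groups that act on ribosomal proteins or their mRNAs. Of 16 genes of mTORC1 and translational control, 1 rose and 0 fell (1.36% and 0.359% of all genes tested), with a median of -0.034. The gene that rose was Eif4ebp1, which encodes a repressor of cap-dependent initiation that mTORC1 inactivates. It went from 8.88, 8.90 and 8.50 in controls to 10.13, 9.78 and 9.998 in DKO. The groups were far apart, with a difference of 1.21 ± 0.13 (SE), a 2.31-fold increase with a limma adjusted p of 0.00257, and its call held in all 17 alternative fits (adjusted p up to 0.0175). Eif4ebp2, its paralog, had -0.18 ± 0.06 (SE, adjusted limma p 0.213).

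Of 21 genes for subunit assembly and the import of ribosomal proteins, 1 rose and 0 fell (1.36% and 0.359% of all genes tested), with a median of 0.061. Ltv1, an assembly factor of the small subunit, went from 8.56, 8.55 and 8.54 in controls to 8.98, 8.84 and 8.89 in DKO. Every DKO value lay above the controls, by 0.35 ± 0.06 (SE, limma adjusted p 0.0309). It no longer passed in 5 of 6 fits on the remaining arrays, without control 1, 2 or 3 or DKO 1 or 3 (limma adjusted p up to 0.130), and with the replicate number as a block (0.0854). Pno1, which acts in the same subunit's maturation, had 0.25 ± 0.10 (SE, adjusted limma p 0.268). Of 19 genes of RNA polymerase I and early ribosome biogenesis 0 were called, with a median of 0.058. At an unadjusted limma p under 0.05, 5 were higher and 0 lower (6.39% and 9.18% of all genes tested). Heatr1 at 0.29 ± 0.06 and Ncl at 0.23 ± 0.07 (SE) had the smallest p. Of 6 genes that respond to unassembled ribosomal proteins 0 were called, with a median of -0.028, 2 means higher and 4 lower. At an unadjusted limma p under 0.05, 1 was higher and 0 lower, Cdkn1a at 0.55 ± 0.16 (SE). Mdm2 had -0.11 ± 0.09 (SE) and Huwe1 -0.09 ± 0.07.

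**Figure D5:**
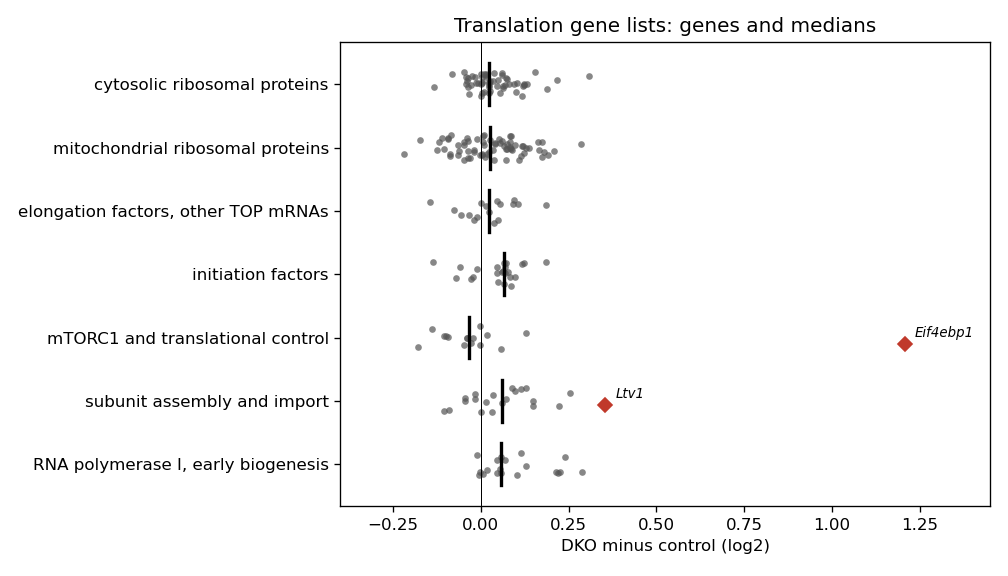
DKO minus control difference (x axis, log2) of each tested gene of 7 gene lists (y axis); black bars are list medians, grey points genes that did not pass the test and red diamonds genes that did. The cytosolic and mitochondrial ribosomal proteins cluster around 0, and Eif4ebp1 at 1.21 and Ltv1 at 0.35 are the called genes.

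Across the whole table array medians lay between 5.94 and 5.97 and pairwise correlations of the arrays between 0.978 and 0.994. The targeted gene Lats1 was lower in DKO, with a log2 change of -0.91 ± 0.14 (SE, limma adjusted p 0.0189), but did not pass without control 1, control 3, DKO 1 or DKO 3 (adjusted p up to 0.0875), while Lats2 had 0.24 ± 0.10 (adjusted limma p 0.285). The probes' places within the deleted or kept parts of the genes are not given in the sources used here. Cortical markers were present: the 9 apical progenitor markers had summed linear signals of 15820 to 16050 in controls and 16790 to 17540 in DKO, though only 5 of the 9 had a higher mean, and the 8 neuron markers 10050 to 10560 and 8465 to 9288. Vim, the brightest progenitor marker, weighed most in the progenitor sums, at 12.49, 12.56 and 12.51 in controls and 12.92, 12.76 and 12.84 in DKO. Its difference was 0.32 ± 0.07 (SE, limma adjusted p 0.0573), so the higher sums do not describe the 9 markers as a set. Slc1a3 rose by 0.40 ± 0.08 (SE, limma adjusted p 0.0397) and the Notch effector Hes5 fell by 0.90 ± 0.09 (0.00197). The 6 measured markers of hem and choroid plexus summed to 353 to 460 and 660 to 1576, and the 6 endothelial markers to 1332 to 1491 and 875 to 1312. The 3 measured of 9 erythroid markers summed to 5676 to 6072 and 4416 to 5719, the 7 meningeal markers to 1329 to 1645 and 873 to 2048, and the 7 microglial markers to 660 to 722 and 590 to 695. Their part in the ribosomal protein values was not tested.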

How the data were processed

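The authors deposited 1 table of log2 values for 41345 rows and 6 arrays, and RMA (robust multi-array average) is named in the submitters' processing notes. As usually run, RMA subtracts background, equalises probe distributions and combines a row's probes. Its version and the probes' genome build are not given in the sources used here. Per the labels, target was made from 100 ng of total RNA.

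Of 25335 annotated rows, 23521 had 1 symbol and 1814 several. For each of 22180 genes the row with the highest mean was kept, and 5456 genes under a mean of 5.02 were left out. Genes were fitted genome-wide with limma 3.58.1 (R 4.3.3, lmFit and eBayes, two-sided, Benjamini-Hochberg over 16724 genes, 4 residual and 4.44 prior degrees of freedom). The fit was also run on simulated data with independent noise for each gene. Those data held no differences shared by the genes of an array, so they do not bear on such differences between the embryos. With 3 arrays per group an exact permutation test cannot go below p = 0.10, and none is given.

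Members and lists were chosen with earlier results of these data known. Named are the 5 highest, the 5 lowest and the 6 smallest-p members, members picked for their role, genes whose rows differ in sign, and 2 genes per other list; Rps10, Rpl28 and any further gene were named after their values were seen. Alternatives were the filter, the row rule, normalization, variance model, array weights, replicate block and leaving out each array.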

Additional observations from a re-analysis of the deposited data

How the results depend on the processing

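In all 17 alternative fits 0 ribosomal protein genes rose and 0 fell. Their median difference ran from 0.012 (without DKO 3) to 0.051 (arrays centred on their medians), always above the median of all genes, by 0.037 (cyclic loess) to 0.065 (mean over all rows of a gene), and moved by less than the spread of array medians within a group (SD 0.029). The count of all genes that rose lay between 121 and 260 when 1 array was left out, and of those that fell between 11 and 54; fewer samples entered those fits. All genes that fell numbered 134 with the stricter filter on dim genes, 162 with a trended variance, 123 with array weights and 24 with the replicate block. The labels do not say whether equal replicate numbers mark pairs. Deviations of same-numbered arrays from their group means correlated at -0.103, 0.209 and 0.152. Control 2 and control 3 correlated best with the DKO array of the same number, and control 1 with DKO 3 (0.243). With 3 arrays per group, such correlations cannot decide whether the arrays were paired. With the block 176 genes rose in place of 228. The block changed no call of a ribosomal protein gene, whose median stayed at 0.023.

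Of 844 values for 50 named genes under alternatives, 787 kept direction and side of the threshold and 37 changed sign, all of ribosomal protein genes and none with a call. With the mean over all rows the log2 difference was 0.0755 for Rpl9, -0.015 for Rpl19, 0.016 for Rpl21, 0.0739 for Rpl29, -0.020 for Rpl7a and -0.0037 for Rps9. With rows of several symbols it was 0.0002 for Rpl26 and 0.45 for Rpl5. With quantile normalization repeated it was -0.0028 for Rpsa, 0.0059 for Rpl5 and -0.029 for Rpl7a. Median centring gave 0.027 for Rps19, 0.010 for Rpl5 and 0.0035 for Rpl29, cyclic loess 0.0081 for Rps19 and 0.018 for Rpl5, and array weights 0.018 for Rps19 and 0.030 for Rpl5. Leaving out 1 array gave -0.10 to 0.010 for Rplp0, -0.10 to 0.024 for Rpl9, -0.11 to 0.0493 for Rps20, -0.20 to 0.17 for Rplp2, -0.0058 to 0.0466 for Rpsa, -0.010 to 0.0849 for Rps14, -0.0544 to 0.034 for Rps19, -0.0706 to 0.0828 for Rpl5, -0.017 to 0.0543 for Rpl38, -0.011 to 0.14 for Rpl39l, -0.025 to 0.024 for Rpl19 and -0.023 to 0.020 for Rpl35. The cause of these changes was not tested. Heatr1 gained a call in 4 alternatives (smallest limma adjusted p 0.0274) and Mrps18b in 6 (0.0171).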

Other observations

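Small nucleolar RNAs (snoRNAs) guide the chemical modification of ribosomal RNA, and many are spliced out of introns of ribosomal protein genes. They were examined after the values of rows shared by a snoRNA and a ribosomal protein gene had been seen, so their counts are descriptions of a group chosen from these data. Of 9 such shared rows, 8 were tested, and all 9 had a higher mean in DKO, against 39.8% of all genes tested. Several of the 9 rows carry the same gene, Rpl13a, so they do not stand for separate genes. The row shared by Snord15b and Rps3 had 8.84, 8.99 and 8.71 in controls and 9.25, 9.26 and 9.31 in DKO, a difference of 0.42 ± 0.08 (SE, limma adjusted p 0.0397), while the row of Rps3 alone had 0.12 ± 0.06. The row shared by Snord68, Rpl13 and a pseudogene had 0.30 ± 0.09 (SE), and that of Snord14a and Rps13 0.24 ± 0.10, both without a call.

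Among snoRNA genes with a row of their own, 67 were tested, with a median difference of 0.20 on the log2 scale. In the limma fit 1 rose and 0 fell, and 27 (40.3%) were higher and 0 lower at an unadjusted p under 0.05, against 6.39% and 9.18% of all genes tested. The gene that rose was Snord87, at 8.06, 7.96 and 8.09 in controls and 8.32, 8.63 and 8.61 in DKO, a difference of 0.49 ± 0.09 (SE, limma adjusted p 0.0410). The arrays of a genotype differed among themselves: the median of the 67 genes relative to each gene's own mean was -0.021, -0.142 and -0.128 in the controls and -0.052, 0.112 and 0.182 in DKO 1, DKO 2 and DKO 3, so DKO 1 lay below control 1. DKO 3 was also the array with the highest ribosomal protein values. Without DKO 3 the median was 0.14, and 11 genes (16.4%) were higher at an unadjusted limma p under 0.05, against 5.38% of all genes. Without DKO 1 the median was 0.24, with 39 (58.2%) higher against 5.58% of all genes, and 4 risen where 131 of 16724 genes rose. Without control 2 or control 3 the number higher was 15 (22.4%), against 5.28% of all genes, and 1 was lower without control 2. The call of 1 gene was lost without control 2, control 3, DKO 2 or DKO 3 and with the replicate block, where 0 rose. The part of the single embryos in these values was not tested.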
